A study of Homo sapiens with 4 samples.

Results

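Death receptors are cell-surface proteins of the tumour necrosis factor receptor family that pass a signal from outside the cell to caspase-8, a protease that starts apoptosis. The genes described here are 10 of the 60651 genes in the deposited count table, chosen by name: FAS, TNFRSF10A, TNFRSF10B, TNFRSF10D, TNFRSF1A, EDA2R, FADD, TRADD, CASP8 and CFLAR. All 10 passed the filter on low counts and were among the 15636 genes tested. They were measured by RNA sequencing of KP4, a human pancreatic ductal adenocarcinoma cell line. There were 4 groups: E5 cells under FOLFIRINOX, E5 cells under vehicle, control cells under FOLFIRINOX and control cells under vehicle. The series title calls the E5 cells resistant to FOLFIRINOX, and the design text speaks of 5 cycles of treatment. Which agent the E5 cells of the vehicle group had met in those cycles, and whether E5 is a clone or a pool, the sources used here do not say. FOLFIRINOX was a mixture of SN-38 at 25 nM (irinotecan in its active form), an agent labelled 5-F at 10 µM and oxaliplatin at 5 µM. Vehicle was DMSO, and exposure lasted 96 h in every group. Cells of all 4 groups grew in DMEM with 10% FBS.

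Each group had 3 libraries, numbered columns of the deposited table, with 7359034 to 21775030 gene reads per library. Nothing says whether these were separate cultures, so the p-values measure only the spread between these libraries, which may be technical. The variance between libraries of a group ranged from 1.46 to 13.3 times the counting variance. Control FOLFIRINOX replicate 2 differed from its partners by 7.26 and 13.3 times (1.46 between those partners), and E5 FOLFIRINOX replicate 3 by 11.8 and 6.49 times (3.7 between its partners). Markers of ductal epithelium fixed as a list of 7 were detected at 1 CPM (gene reads scaled to library size) or more for 5 of 7 under FOLFIRINOX and 6 of 7 under vehicle, in both kinds of cell. Their summed level was 901 to 1002 CPM in E5 cells under FOLFIRINOX, 837 to 935 CPM in E5 cells under vehicle, 491 to 547 CPM in control cells under FOLFIRINOX and 247 to 277 CPM in control cells under vehicle. EPCAM was under 1 CPM in every group except control cells under FOLFIRINOX. KRT19 was under 1 CPM in that group alone, and CDH1 in both FOLFIRINOX groups. KRT18 made up most of each sum. It averaged 622 CPM under FOLFIRINOX and 530 CPM under vehicle in E5 cells, and 367 and 171 CPM in control cells. KRT19 averaged less under FOLFIRINOX than under vehicle, at 1.79 against 4.38 CPM in E5 cells and 0.24 against 1.1 CPM in control cells. Of 6 leukocyte markers, by counts PTPRC alone reached 1 CPM, in control cells, where the list summed to 10.3 to 14.0 CPM under FOLFIRINOX and 48.9 to 55.0 CPM under vehicle. The list summed to at most 0.772 CPM in E5 cells, and the T cell marker CD3E was at 0 in all libraries. CD68, a macrophage and lysosome marker of that list, had at most 17 reads in a group, but its FPKM averaged 23.1 ± 4.58 in E5 cells under FOLFIRINOX, 12.9 ± 1.42 in E5 cells under vehicle, 64.7 ± 9.17 in control cells under FOLFIRINOX and 7.52 ± 0.933 in control cells under vehicle (SD, n = 3 each). The leukocyte sums therefore depend on the count table for CD68, whose FPKM moved with the drug. Of 5 fibroblast markers, 1 reached 1 CPM, and the list summed to 8.84 to 10.6 CPM in E5 cells under FOLFIRINOX, 15.2 to 16.9 CPM in E5 cells under vehicle, 3.23 to 3.62 CPM in control cells under FOLFIRINOX and 4.15 to 4.58 CPM in control cells under vehicle. The 4 endothelial markers summed to 2.0 to 2.79 CPM under FOLFIRINOX and 6.7 to 7.15 CPM under vehicle in E5 cells. In control cells they summed to 0.9 to 1.34 CPM under FOLFIRINOX and 0.667 to 1.48 CPM under vehicle. The 3 acinar markers were at 0, and the 2 Schwann or neural markers summed to at most 0.386 CPM. These values move with the E5 and control labels and with the drug, as some of the results below do, and their part in those results was not tested.

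The genes lie at a few places of the GRCh38 build. FAS (ENSG00000026103.22) is at chr10:88990531-89017059 on the plus strand and overlaps ACTA2 on the other strand. TNFRSF10A (ENSG00000104689.10, chr8:23190452-23225102), TNFRSF10D (ENSG00000173530.6, chr8:23135588-23164027) and TNFRSF10B (ENSG00000120889.13, chr8:23020133-23069031) lie close together on the minus strand of chromosome 8. They are related in sequence, and reads that map to several places were left out of gene counts by the authors' counting, so part of the signal of near-identical stretches may be missing. TNFRSF1A (ENSG00000067182.8) is at chr12:6328757-6342114 on the minus strand, and EDA2R (ENSG00000131080.15) at chrX:66595637-66639298 on the minus strand. FADD (ENSG00000168040.5) is at chr11:70203296-70207390 on the plus strand, and TRADD (ENSG00000102871.16) at chr16:67154185-67159909 on the minus strand. CFLAR (ENSG00000003402.20, chr2:201116154-201176687) and CASP8 (ENSG00000064012.22, chr2:201233443-201287711) lie in the same direction on the plus strand of chromosome 2 with CASP10 between them. Counts were made per strand, so overlap with a gene of the other strand does not mix reads. On its own strand CFLAR shares exon bases with AC007283.1, which had 0 reads over the 12 libraries. Reads in those bases may have been left out as ambiguous between genes.

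When FAS ligand binds FAS, or TRAIL binds TNFRSF10A or TNFRSF10B, the death domain of the receptor recruits the adaptor FADD, which brings procaspase-8 molecules together until they activate each other. TNFRSF1A, the main receptor for TNF, first gathers a signalling complex around the adaptor TRADD that can activate NF-kappaB, and can pass on to FADD and caspase-8 later. CFLAR encodes cFLIP, a relative of caspase-8 without its protease activity that competes for FADD and restrains the complex. TNFRSF10D is a decoy that binds TRAIL with a truncated death domain. EDA2R is the receptor for ectodysplasin-A2 and is known as a p53 target, and it lacks a death domain. FAS and TNFRSF10B are also known p53 targets in human cells.

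The promoters of 5 genes are printed, each with a called difference. FAS was higher under FOLFIRINOX in both kinds of cell. TNFRSF1A and EDA2R had the largest differences upwards and downwards between E5 and control cells. CASP8 and CFLAR are the neighbours on chromosome 2 that were both higher in E5 cells under vehicle. Each printed promoter runs from 250 bases before to 50 bases after the start site, 5′ to 3′ on the strand of the gene, from RefSeq on GRCh38.p14. The windows are chr10:88990548-88990847 on the plus strand for FAS, chr12:6342027-6342326 on the minus strand for TNFRSF1A, chrX:66639220-66639519 on the minus strand for EDA2R, chr2:201233213-201233512 on the plus strand for CASP8 and chr2:201118466-201118765 on the plus strand for CFLAR. Capitals mark the bases that match a searched motif on either strand.
FAS: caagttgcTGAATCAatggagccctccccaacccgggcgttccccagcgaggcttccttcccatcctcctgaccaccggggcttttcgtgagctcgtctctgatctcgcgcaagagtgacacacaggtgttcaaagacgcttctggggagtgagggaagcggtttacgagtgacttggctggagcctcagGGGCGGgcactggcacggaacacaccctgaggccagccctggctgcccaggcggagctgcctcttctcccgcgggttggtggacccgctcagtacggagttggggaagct
TNFRSF1A: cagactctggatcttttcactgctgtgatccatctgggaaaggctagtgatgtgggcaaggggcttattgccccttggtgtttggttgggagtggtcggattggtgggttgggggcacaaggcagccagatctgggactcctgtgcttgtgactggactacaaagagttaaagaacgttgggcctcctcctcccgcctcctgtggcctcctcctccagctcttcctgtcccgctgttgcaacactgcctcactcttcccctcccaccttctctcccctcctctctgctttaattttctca
EDA2R: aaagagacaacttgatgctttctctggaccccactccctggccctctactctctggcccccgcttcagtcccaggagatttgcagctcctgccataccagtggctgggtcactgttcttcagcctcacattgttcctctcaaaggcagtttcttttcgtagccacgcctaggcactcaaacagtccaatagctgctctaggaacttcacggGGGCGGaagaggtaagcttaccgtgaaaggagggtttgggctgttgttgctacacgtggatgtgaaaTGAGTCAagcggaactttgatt
CASP8: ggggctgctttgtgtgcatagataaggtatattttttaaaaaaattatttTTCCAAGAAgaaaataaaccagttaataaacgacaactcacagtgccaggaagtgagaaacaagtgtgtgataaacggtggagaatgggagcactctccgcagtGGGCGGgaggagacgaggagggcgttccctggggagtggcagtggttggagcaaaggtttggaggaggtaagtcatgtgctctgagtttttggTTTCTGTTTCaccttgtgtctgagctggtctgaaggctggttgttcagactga
CFLAR: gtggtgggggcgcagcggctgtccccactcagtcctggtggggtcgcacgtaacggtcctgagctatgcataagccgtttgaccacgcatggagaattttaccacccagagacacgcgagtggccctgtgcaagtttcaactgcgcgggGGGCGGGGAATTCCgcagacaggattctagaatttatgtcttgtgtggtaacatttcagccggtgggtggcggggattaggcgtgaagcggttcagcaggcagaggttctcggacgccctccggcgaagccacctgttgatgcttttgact

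The search covered the GC box GGGCGG, the AP-1 motif TGANTCA, the STAT element TTCNNNGAA and the TATA box TATAAA, and by name alone the interferon response element, the p53 decamer (the repeated unit of a p53 response element) and the NF-kappaB site, on both strands. Positions are counted from the start site, with negative numbers before it. The FAS window held an AP-1 match beginning at position -242 and a GC box at -60. The CASP8 window held a STAT element match beginning at -200, a GC box at -96 and an interferon response element match on the minus strand at -3. In the CFLAR window an NF-kappaB site match began at -97 and shared bases with a GC box that began at -101. The RefSeq start of CFLAR used here is 2562 bases from the gene's start in the deposited table. The TNFRSF1A window held none of the 7 motifs. Windows were matched for 6 of the 10 genes, and the EDA2R window held a GC box at -39 and an AP-1 match at 29. The FADD window, not printed, held GC box matches and an AP-1 match. Of 35116 promoter windows of this length, 45.0% held a GC box, 7.71% an AP-1 match, 7.66% a STAT element match, 5.91% an NF-kappaB site match and 3.57% an interferon response element match. TATA box matches were found in 11.5% and p53 decamer matches in 6.63% of the windows, and the windows of these 6 genes held neither. A match describes the letters only.

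Compared per gene length, TNFRSF1A was the most abundant of the 10 transcripts in every group. The authors' FPKM (fragments per length of transcript and depth of library) for TNFRSF1A averaged 159 ± 8.83 in E5 cells under FOLFIRINOX, 189.6 ± 7.69 in E5 cells under vehicle, 60.6 ± 2.91 in control cells under FOLFIRINOX and 88.2 ± 8.25 in control cells under vehicle (SD, n = 3 each). CASP8, CFLAR, TNFRSF10B and FADD followed at 19.3 to 41.8 FPKM, in an order that differed between groups. In E5 cells under FOLFIRINOX, CASP8 (41.3 ± 3.58 FPKM) stood above CFLAR (32.5 ± 3.37 FPKM), whose libraries overlapped those of TNFRSF10B (28.6 ± 1.69 FPKM). In E5 cells under vehicle, CFLAR (41.8 ± 3.36 FPKM) stood above CASP8 (35.3 ± 1.36 FPKM). In control cells under FOLFIRINOX, CASP8 (39.2 ± 2.47 FPKM) stood above TNFRSF10B (27.6 ± 0.998 FPKM), while TNFRSF10B, CFLAR and FADD overlapped from one to the next. In control cells under vehicle, CFLAR (24.0 ± 3.42 FPKM) and CASP8 (23.5 ± 1.46 FPKM) overlapped, and so did TNFRSF10B and FADD. TNFRSF10A, FAS and TNFRSF10D came next at 3.06 to 16.8 FPKM, and TNFRSF10A and FAS overlapped in control cells under FOLFIRINOX. TRADD, at 2.41 to 3.73 FPKM, and EDA2R, at 0.56 to 2.48 FPKM, were at the low end, and they overlapped in both control groups. In E5 cells under vehicle TRADD also overlapped TNFRSF10D. With CPM per kilobase of annotated exons in place of FPKM, TNFRSF1A stayed first in all 4 groups, but only 2 to 4 of the 10 genes kept their rank, so the order below TNFRSF1A rests on the length used.

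**Figure D1:**
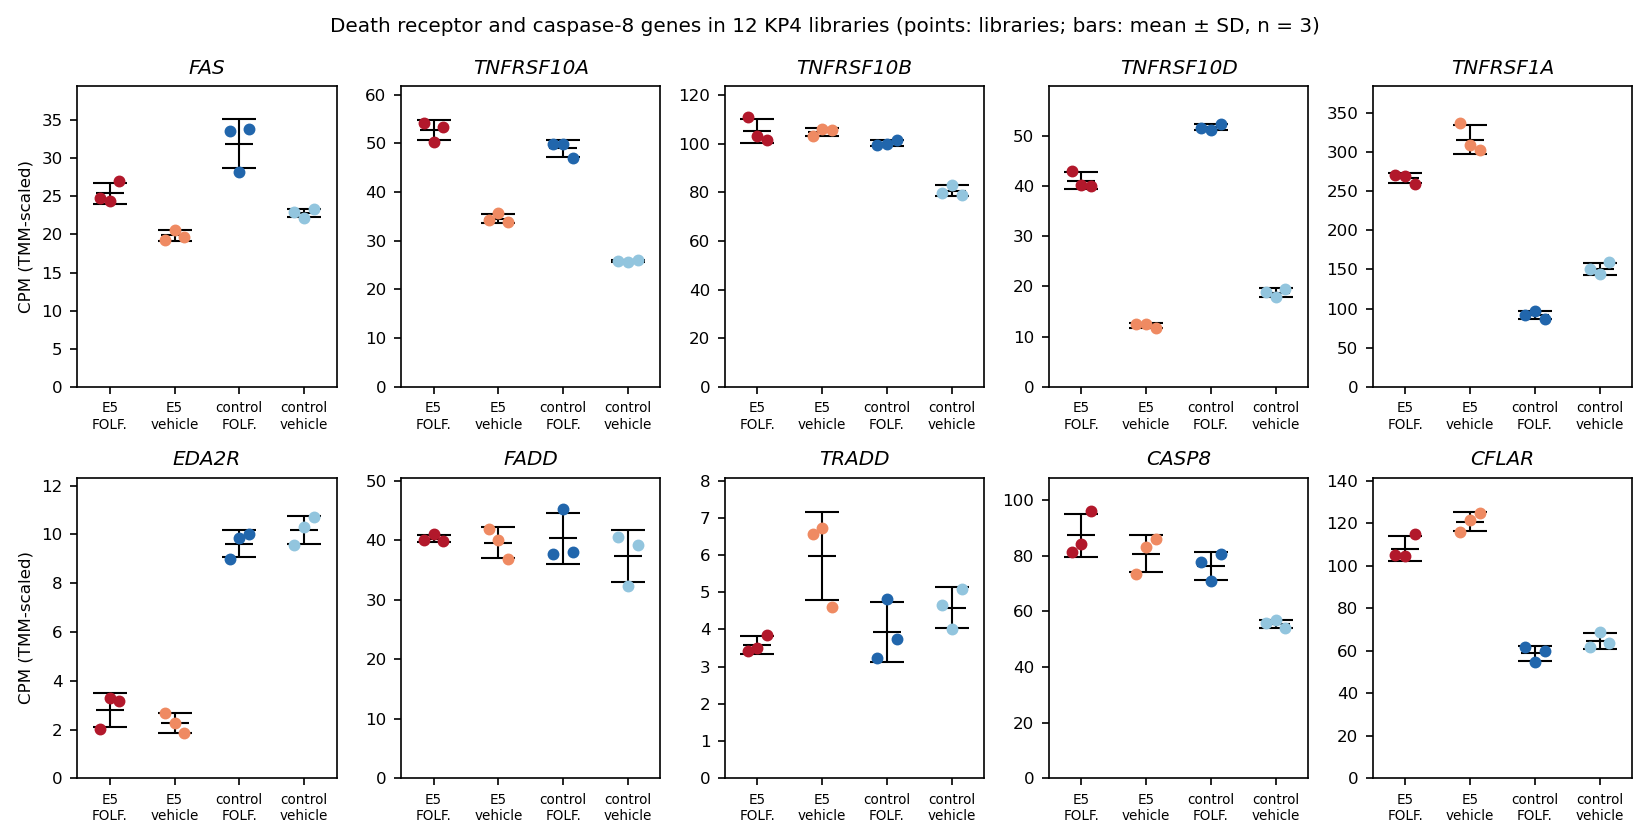
Level of each of the 10 genes in every library (points), with mean and SD bars (n = 3), in CPM after TMM scaling, for E5 cells under FOLFIRINOX, E5 cells under vehicle, control cells under FOLFIRINOX and control cells under vehicle. TNFRSF1A and CFLAR are higher and EDA2R is lower in all 6 E5 libraries than in all 6 control libraries, and TNFRSF10D is higher in every FOLFIRINOX library than in any vehicle library.

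Against vehicle, FOLFIRINOX went with higher FAS, TNFRSF10A and TNFRSF10D and lower TNFRSF1A in both kinds of cell. TNFRSF10B and CASP8 were higher under the drug in control cells, and TRADD was lower under the drug in E5 cells. By edgeR's quasi-likelihood test with Benjamini-Hochberg adjustment over all genes, under the drug 3 of the 10 genes passed as higher and 2 as lower in E5 cells, where 52.3% of all tested genes passed (25.0% higher and 27.3% lower). In control cells 5 passed as higher and 1 as lower, where 65.3% of all tested genes passed (32.6% higher and 32.7% lower), so the shares of 5 and 6 in 10 are near those of the transcriptome. The median log2 fold change of the 10 genes was 0.07 in E5 cells and 0.22 in control cells, and that of all tested genes was 0.00 in both. The drug and vehicle libraries did not overlap in CPM for 6 of the 10 genes in E5 cells, where this held for 59.7% of all tested genes, and for 6 in control cells, where it held for 67.0%. In bulk samples, fewer cells of a kind and less RNA per cell cannot be told apart, here and in every comparison that follows.

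E5 cells set against control cells under the same treatment had more TNFRSF1A and CFLAR and less EDA2R and TNFRSF10D. CASP8 was higher in E5 cells under vehicle. Under FOLFIRINOX it passed only at the edge of the threshold (edgeR adjusted p = 0.049), a call lost under many of the alternative settings. Under FOLFIRINOX 3 of the 10 genes passed as higher and 3 as lower, beside 54.3% of all tested genes (26.7% higher and 27.6% lower). Under vehicle 5 passed as higher and 2 as lower, beside 44.3% of all tested genes (22.1% higher and 22.2% lower). The median log2 fold change of the 10 genes was 0.03 under FOLFIRINOX and 0.38 under vehicle, and that of all tested genes was -0.01 under both. E5 and control libraries did not overlap for 8 of the 10 genes under FOLFIRINOX and for 8 under vehicle, where this held for 57.2% and 54.8% of all tested genes. The drug effect itself differed between E5 and control cells, as tested by the interaction, for 4 of the 10 genes, where 25.7% of all tested genes passed (13.3% higher and 12.4% lower). TNFRSF1A fell less under the drug in E5 cells (-0.24 on the log2 scale, against -0.73 in control cells). TNFRSF10A, TNFRSF10B and CASP8 had smaller drug effects in E5 cells (0.61, 0.00 and 0.11) than in control cells (0.92, 0.31 and 0.46). None of the 10 differences reached 2-fold, a size with which 5.52% of all tested genes passed.

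**Figure D2:**
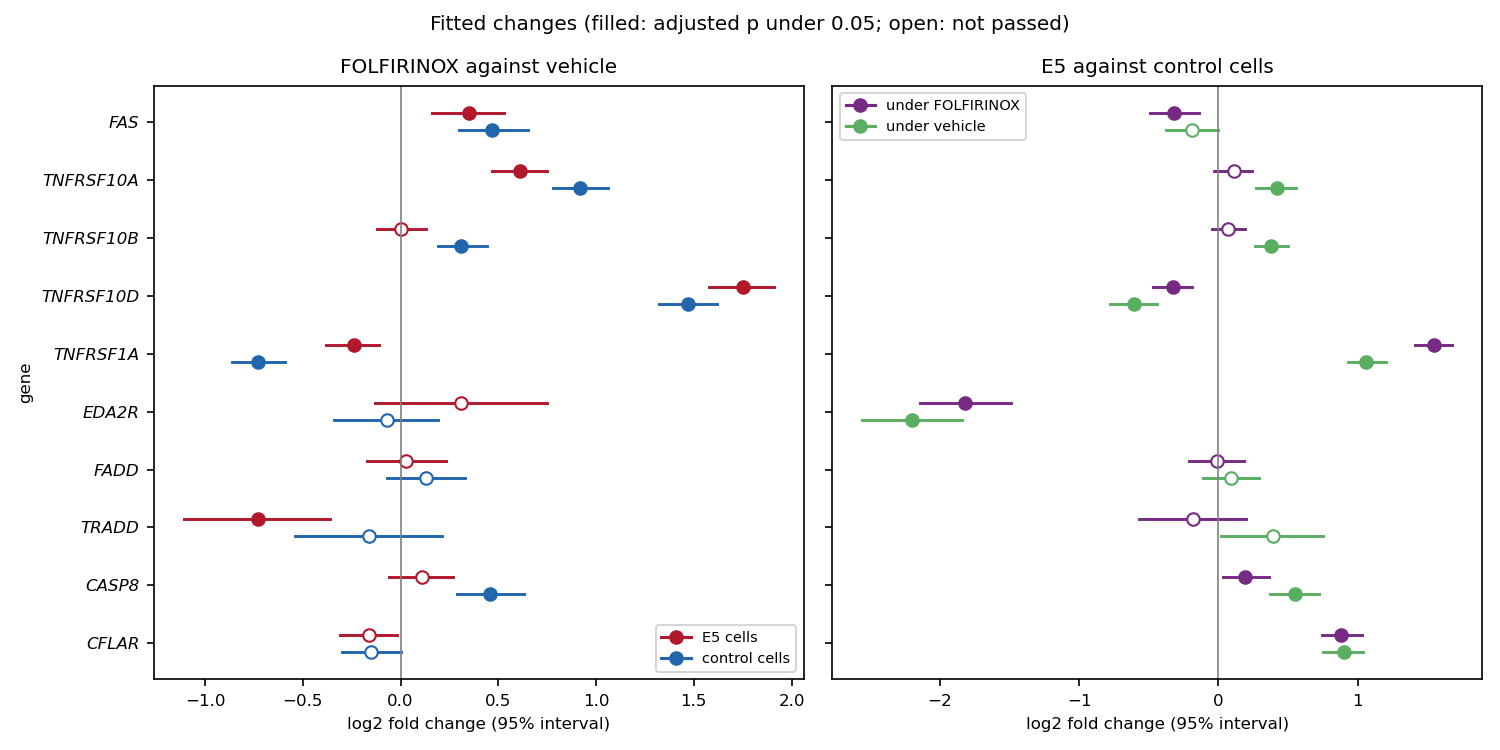
Log2 fold changes of the 10 genes with 95% intervals from the edgeR fit: FOLFIRINOX against vehicle in E5 and control cells (left), and E5 against control cells under FOLFIRINOX and under vehicle (right). Filled points passed an adjusted p of 0.05. TNFRSF10D has the largest positive drug changes (1.75 and 1.47), TNFRSF1A the largest positive differences between E5 and control cells (1.55 and 1.06) and EDA2R the largest negative ones (-1.82 and -2.20).

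The decoy TRAIL receptor TNFRSF10D had the largest drug response among the 10 genes. Its level was 43.0, 40.1 and 40.0 CPM in E5 cells under FOLFIRINOX, against 12.6, 12.5 and 11.7 CPM in E5 cells under vehicle. In control cells it was 51.6, 51.2 and 52.4 CPM under FOLFIRINOX, against 18.9, 17.8 and 19.5 CPM under vehicle. No FOLFIRINOX library overlapped a vehicle library. The log2 fold change was 1.75 ± 0.077 (SE) in E5 cells, a 3.36-fold higher level (edgeR adjusted p = 5.2e-11), and 1.47 ± 0.071 in control cells, a 2.77-fold higher level (adjusted p = 3.3e-11). These were the only changes of at least 2-fold among the 10 genes under the drug, where 10.2% of all tested genes passed with such a change in E5 cells and 19.9% in control cells. E5 cells had less TNFRSF10D than control cells under FOLFIRINOX (log2 fold change -0.33 ± 0.066, adjusted p = 4.1e-04) and under vehicle (-0.61 ± 0.082, adjusted p = 1.1e-05). The drug effect in E5 cells exceeded that in control cells by 0.28 ± 0.11 on the log2 scale, which did not pass (95% interval 0.06 to 0.50, adjusted p = 0.062).

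TNFRSF10A, a TRAIL death receptor beside TNFRSF10D on chromosome 8, was also higher under the drug. Its level was 54.2, 50.3 and 53.4 CPM in E5 cells under FOLFIRINOX, against 34.2, 35.6 and 33.8 CPM in E5 cells under vehicle. Control cells had 49.9, 49.9 and 47.0 CPM under FOLFIRINOX, against 25.9, 25.6 and 26.1 CPM under vehicle. The groups given the drug were close to each other, while under vehicle all E5 libraries lay above all control libraries. The drug effect was 0.61 ± 0.066 in E5 cells (edgeR adjusted p = 9.6e-07) and 0.92 ± 0.067 in control cells (adjusted p = 3.8e-09), in log2 fold change. On the log2 scale E5 cells exceeded control cells by 0.42 ± 0.069 under vehicle (adjusted p = 9.2e-05) and by 0.11 ± 0.063 under FOLFIRINOX, which did not pass (95% interval -0.03 to 0.24, adjusted p = 0.163). The difference of the drug effects was -0.31 ± 0.093 (adjusted p = 0.022), and this call was lost without control FOLFIRINOX replicate 1 (-0.29), control vehicle replicate 2 (-0.30), E5 FOLFIRINOX replicate 2 (-0.27) or E5 vehicle replicate 2 (-0.28), and when no filter on low counts was applied (-0.27).

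TNFRSF10B, the other TRAIL death receptor, was higher under the drug in control cells. It stood at 110.8, 103.1 and 101.4 CPM in E5 cells under FOLFIRINOX, against 103.1, 106.0 and 105.4 CPM in E5 cells under vehicle, and these libraries overlapped. In control cells it stood at 99.4, 99.9 and 101.4 CPM under FOLFIRINOX, against 79.6, 83.1 and 79.0 CPM under vehicle, without overlap. Control vehicle libraries were thus the low ones, and the other 3 groups spanned 99.4 to 110.8 CPM. The log2 drug effect was 0.00 ± 0.058 in E5 cells (95% interval -0.12 to 0.13, edgeR adjusted p = 0.963) and 0.31 ± 0.058 in control cells (adjusted p = 1.6e-04). The difference between these effects was -0.31 ± 0.082 (adjusted p = 0.011), and the call was lost only when no filter on low counts was applied (-0.27). On the log2 scale E5 cells exceeded control cells by 0.38 ± 0.059 under vehicle (adjusted p = 4.7e-05), while the difference of 0.07 ± 0.058 under FOLFIRINOX did not pass (95% interval -0.05 to 0.19, adjusted p = 0.328).

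Reads of the TRAIL death receptors were set against those of the decoy TNFRSF10D within each library, where scaling between libraries plays no part. Other decoys of the family are not part of these ratios. TNFRSF10A had 1.28 ± 0.044 reads per TNFRSF10D read in E5 cells under FOLFIRINOX, against 2.82 ± 0.0952 in E5 cells under vehicle (mean ± SD, n = 3 each). It had 0.946 ± 0.0431 in control cells under FOLFIRINOX, against 1.38 ± 0.0491 in control cells under vehicle. For TNFRSF10B the ratio was 2.56 ± 0.0226 in E5 cells under FOLFIRINOX, against 8.57 ± 0.43 in E5 cells under vehicle. It was 1.94 ± 0.0118 in control cells under FOLFIRINOX, against 4.31 ± 0.317 in control cells under vehicle. For both receptors the ratio was lowest in control cells under FOLFIRINOX and highest in E5 cells under vehicle, and FOLFIRINOX libraries were below the vehicle libraries of the same cells. These ratios follow from the levels above and were not tested separately.

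**Figure D3:**
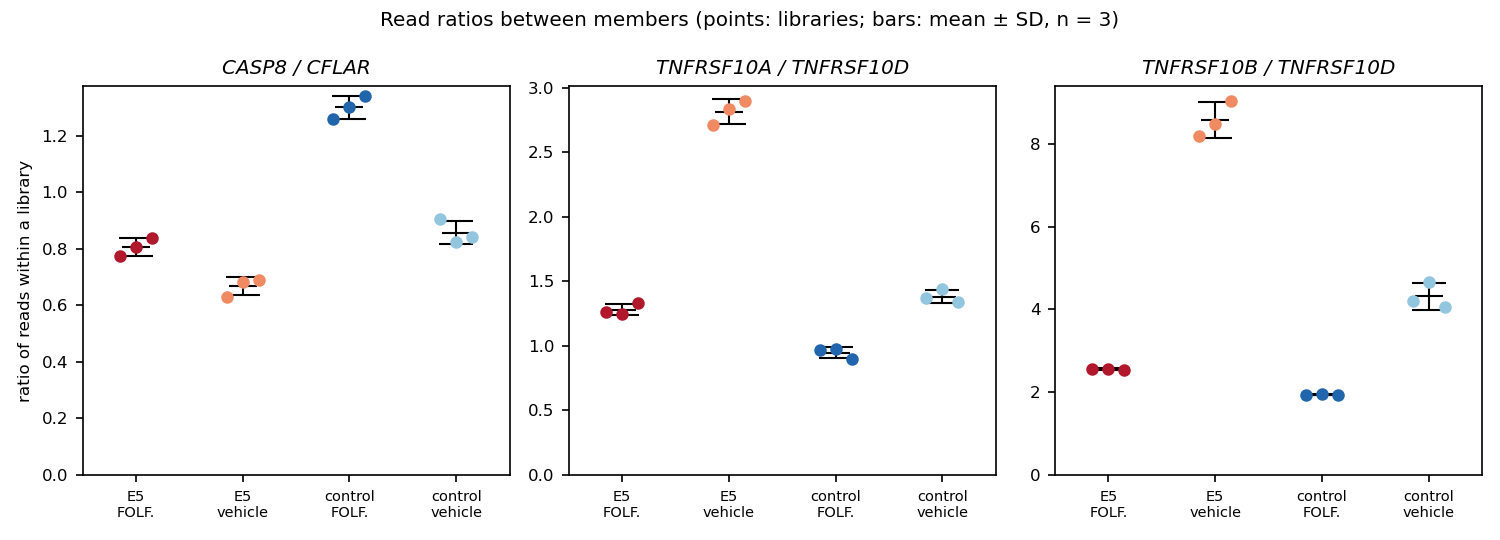
Ratio of reads of CASP8 to CFLAR, of TNFRSF10A to TNFRSF10D and of TNFRSF10B to TNFRSF10D within each library (points), with mean and SD bars (n = 3), in the 4 groups. The ratio of CASP8 to CFLAR is highest in control cells under FOLFIRINOX (1.30), and both receptor to decoy ratios are highest in E5 cells under vehicle (2.82 and 8.57).

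FAS, the receptor for FAS ligand, was modestly higher under FOLFIRINOX in both kinds of cell. Its level was 24.8, 24.4 and 27.0 CPM in E5 cells under FOLFIRINOX, against 19.3, 20.6 and 19.7 CPM in E5 cells under vehicle. Control cells had 33.6, 28.2 and 33.9 CPM under FOLFIRINOX, against 23.0, 22.2 and 23.3 CPM under vehicle. The drug and vehicle libraries did not overlap in either kind of cell. The log2 fold change was 0.35 ± 0.088 in E5 cells (edgeR adjusted p = 0.0031) and 0.47 ± 0.084 in control cells (adjusted p = 1.0e-04). Their difference was -0.13 ± 0.12 (95% interval -0.38 to 0.13, adjusted p = 0.487). E5 cells had less FAS than control cells under FOLFIRINOX (-0.32 ± 0.083, adjusted p = 0.0036). Under vehicle the E5 libraries again lay below the control libraries, but the change of -0.19 ± 0.089 did not pass (adjusted p = 0.092), though it passed on the FPKM scale (-0.26 and -0.29).

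TNFRSF1A, the TNF receptor, had the largest excess in E5 over control cells among the 10 genes. It stood at 270.8, 270.0 and 258.9 CPM in E5 cells under FOLFIRINOX, against 337, 308.5 and 303 CPM in E5 cells under vehicle. In control cells it stood at 91.6, 96.3 and 86.1 CPM under FOLFIRINOX, against 150.2, 143.7 and 159 CPM under vehicle. All 6 E5 libraries lay above all 6 control libraries, and within each kind of cell the drug libraries lay below the vehicle libraries. E5 cells had 2.92-fold more than control cells under FOLFIRINOX (log2 fold change 1.55 ± 0.065, edgeR adjusted p = 3.8e-12) and 2.09-fold more under vehicle (1.06 ± 0.063, adjusted p = 3.3e-10). Changes of at least 2-fold passed for 14.9% of all tested genes under FOLFIRINOX and for 12.5% under vehicle. TNFRSF1A fell under FOLFIRINOX, with log2 changes of -0.24 ± 0.062 in E5 cells (adjusted p = 0.0033) and of -0.73 ± 0.064 in control cells (adjusted p = 4.2e-08). The drug effects differed by 0.48 ± 0.089 (adjusted p = 9.7e-04), a call that held for every library left out in turn but not on the FPKM scale, where the difference was 0.27 and 0.28 with pseudocounts of 1 and 0.1.

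EDA2R, by contrast, was scarce in E5 cells and did not pass a test of the drug in either kind of cell. It had 2.02, 3.28 and 3.15 CPM in E5 cells under FOLFIRINOX, against 2.68, 2.26 and 1.87 CPM in E5 cells under vehicle. Control cells had 9.0, 9.87 and 10.0 CPM under FOLFIRINOX, against 9.56, 10.3 and 10.7 CPM under vehicle. The E5 values rest on 39, 46 and 49 reads under FOLFIRINOX and 20, 36 and 22 reads under vehicle, and no E5 library came near a control library. EDA2R was 3.52-fold lower in E5 cells under FOLFIRINOX (log2 fold change -1.82 ± 0.15, edgeR adjusted p = 3.2e-08) and 4.59-fold lower under vehicle (-2.20 ± 0.17, adjusted p = 1.2e-08). The drug change was 0.31 ± 0.21 in E5 cells (95% interval -0.13 to 0.75, adjusted p = 0.230) and -0.07 ± 0.13 in control cells (95% interval -0.34 to 0.19, adjusted p = 0.624). In E5 cells it passed when E5 FOLFIRINOX replicate 1, the lowest of that group, was left out (0.53, adjusted p = 0.035). The difference of the drug effects was 0.38 ± 0.24 (adjusted p = 0.271).

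Of the adaptors, FADD passed no test by edgeR in any comparison. It ranged from 39.8 to 41.0 CPM in E5 cells under FOLFIRINOX, 36.8 to 41.9 CPM in E5 cells under vehicle, 37.7 to 45.3 CPM in control cells under FOLFIRINOX and 32.3 to 40.5 CPM in control cells under vehicle. These ranges overlapped in every pair of groups compared. Its log2 drug change was 0.03 (95% interval -0.17 to 0.23) in E5 cells and 0.13 (-0.07 to 0.33) in control cells. Between E5 and control cells the change was -0.01 (-0.21 to 0.18) under FOLFIRINOX and 0.09 (-0.11 to 0.29) under vehicle. Only with scaling by total counts did one of these pass, the drug change in control cells (0.27, adjusted p = 0.025).

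TRADD, the adaptor of TNFRSF1A, was scarce and passed in E5 cells under the drug only. It had 3.41, 3.49 and 3.86 CPM in E5 cells under FOLFIRINOX, against 6.56, 6.73 and 4.60 CPM in E5 cells under vehicle. Control cells had 3.22, 4.81 and 3.74 CPM under FOLFIRINOX, against 4.67, 4.01 and 5.09 CPM under vehicle, and these overlapped. Each group held 175 to 215 TRADD reads over its 3 libraries. The log2 drug change in E5 cells was -0.73 ± 0.18 (edgeR adjusted p = 0.0024), and it did not pass on the log2(FPKM + 0.1) scale (-0.57, adjusted p = 0.056). In control cells the change was -0.16 ± 0.18 (95% interval -0.54 to 0.21, adjusted p = 0.436), and the difference of the effects was -0.57 ± 0.25 (95% interval -1.10 to -0.04, adjusted p = 0.107). E5 against control cells gave -0.18 ± 0.18 under FOLFIRINOX (adjusted p = 0.414) and 0.39 ± 0.17 under vehicle (adjusted p = 0.083). E5 vehicle replicate 3 decided both: without it, the vehicle comparison passed (0.55, adjusted p = 0.020) and so did the difference of the drug effects (-0.73, adjusted p = 0.041).

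CASP8, the initiator caspase, was higher in E5 cells than in control cells and rose with the drug in control cells. It stood at 81.4, 84.4 and 96.2 CPM in E5 cells under FOLFIRINOX, against 73.3, 83.1 and 86.0 CPM in E5 cells under vehicle. Control cells had 77.8, 70.9 and 80.7 CPM under FOLFIRINOX, against 55.7, 56.9 and 53.9 CPM under vehicle. The control vehicle libraries were the lowest, and the E5 drug and vehicle libraries overlapped. The log2 drug change was 0.11 ± 0.079 in E5 cells (95% interval -0.06 to 0.27, edgeR adjusted p = 0.272), which passed on the FPKM scale (0.22), and 0.46 ± 0.081 in control cells (adjusted p = 9.0e-05). On the log2 scale E5 cells exceeded control cells by 0.55 ± 0.081 under vehicle (adjusted p = 3.2e-05). Under FOLFIRINOX they did so by 0.19 ± 0.079, at the edge of the threshold (adjusted p = 0.049). That call was lost with total-count scaling (0.11), with DESeq2, on the FPKM scale (0.07), with only the compared groups in the fit. It was also lost without any 1 of 8 libraries (0.13 to 0.22): E5 FOLFIRINOX replicates 2 and 3, E5 vehicle replicate 2, control FOLFIRINOX replicates 1 and 2 and control vehicle replicates 1, 2 and 3. The difference of the drug effects was -0.35 ± 0.11 (adjusted p = 0.030), and it was lost with no filter on low counts (-0.31) and without any 1 of 8 libraries (-0.30 to -0.35): E5 FOLFIRINOX replicates 1 and 2, E5 vehicle replicates 2 and 3, and replicates 1 and 3 of both control groups.

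CFLAR, whose product restrains caspase-8, was also higher in E5 cells, with or without the drug. It had 105.0, 104.6 and 114.8 CPM in E5 cells under FOLFIRINOX, against 116.1, 121.7 and 124.7 CPM in E5 cells under vehicle. Control cells had 61.7, 54.6 and 60.0 CPM under FOLFIRINOX, against 61.6, 68.9 and 63.9 CPM under vehicle. Every E5 library exceeded every control library. The log2 fold change of E5 against control cells was 0.88 ± 0.070 under FOLFIRINOX (1.84-fold, edgeR adjusted p = 1.3e-08) and 0.90 ± 0.070 under vehicle (1.86-fold, adjusted p = 1.2e-08). The drug change was -0.16 ± 0.068 in E5 cells (adjusted p = 0.056) and -0.15 ± 0.071 in control cells (adjusted p = 0.075), neither of which passed. In E5 cells it passed on the FPKM scale (-0.35 and -0.36), without E5 FOLFIRINOX replicate 3 (-0.20) and without control FOLFIRINOX replicate 2 (-0.15). The difference of the drug effects was -0.01 ± 0.098 (95% interval -0.22 to 0.19, adjusted p = 0.945). Counts per gene do not separate the long and short forms of cFLIP.

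The balance of the caspase and its inhibitor was also read within each library. There were 0.807 ± 0.0314 CASP8 reads per CFLAR read in E5 cells under FOLFIRINOX, against 0.668 ± 0.0321 in E5 cells under vehicle (mean ± SD, n = 3 each). Control cells had 1.30 ± 0.0421 under FOLFIRINOX, against 0.858 ± 0.0413 under vehicle. The 3 E5 vehicle libraries (0.631, 0.683 and 0.689) were the lowest of the 12, and the 3 control FOLFIRINOX libraries (1.26, 1.30 and 1.34) the highest. On the FPKM scale the ratio was 1.28 ± 0.204 in E5 cells under FOLFIRINOX, 0.848 ± 0.0587 in E5 cells under vehicle, 1.67 ± 0.224 in control cells under FOLFIRINOX and 0.996 ± 0.170 in control cells under vehicle. There the same 2 groups were lowest and highest, but libraries of neighbouring groups overlapped. These ratios restate the levels above and were not tested separately.

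The 10 genes did not move as a block over the 4 groups. Centred on each gene's own mean, log2 levels spanned 2.18 for EDA2R, 2.08 for TNFRSF10D, 1.79 for TNFRSF1A, 1.04 for CFLAR and 1.02 for TNFRSF10A, and 0.12 for FADD. The most alike pair was TNFRSF10B and CASP8, whose centred levels differed by at most 0.14. EDA2R was the least like the others, with FAS nearest at 1.14. Over the same 4 group means, the nearest protein-coding genes were SOCS3 for TNFRSF1A (0.09), CPNE7 for TNFRSF10D (0.05), B4GALT1 for CFLAR (0.02), IRF2 for TNFRSF10B (0.02), ZNF324B for CASP8 (0.02) and ARHGAP24 for EDA2R (0.13). With 4 means and 12 libraries such likeness is a description.

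Of 8 ligand genes of the TNF family, some of which bind receptors other than those described here, 3 had enough reads to be tested, TNFSF10, TNFSF15 and EDA. TNFSF10, which encodes TRAIL, had 132 reads over the 3 E5 FOLFIRINOX libraries, 212 over the E5 vehicle libraries, 3 over the control FOLFIRINOX libraries and 17 over the control vehicle libraries. It was 41.3-fold higher in E5 than in control cells under FOLFIRINOX (exact 95% counting interval 13.8 to 203) and 16.8-fold higher under vehicle (10.3 to 29.4), with adjusted p by edgeR of 1.1e-08 and 6.8e-10. Under the drug TNFSF10 was lower in E5 cells, at 0.447 of its vehicle level (0.357 to 0.558), and in control cells, at 0.182 of its vehicle level (0.0342 to 0.631). TNFSF15 was higher under the drug in control cells, with 36 reads under FOLFIRINOX against 6 under vehicle. FASLG, which encodes FAS ligand, had 3 reads over all 12 libraries and TNF had 8. TNFSF12 had 0 counts, and its highest FPKM was 0.0 too. A gene overlaps TNFSF12 on the same strand, and whether it takes reads was not tested. Counting intervals cover counting error only.

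Among 10 other receptors and decoys of the family, 7 were tested. Under FOLFIRINOX 3 were higher and 2 lower in E5 cells (25.0% and 27.3% of all tested genes), and 6 were higher and none lower in control cells (32.6% and 32.7% of all tested genes). TNFRSF11B, the decoy osteoprotegerin, was higher under the drug in E5 cells (log2 fold change 1.89 ± 0.28) and in control cells (1.75 ± 0.31). In E5 against control cells, 4 were higher and 2 lower under FOLFIRINOX (26.7% and 27.6% of all tested genes). Under vehicle 4 were higher and none lower (22.1% and 22.2% of all tested genes). TNFRSF21 was higher in E5 cells (1.42 ± 0.060 under FOLFIRINOX and 1.70 ± 0.062 under vehicle), and so was TNFRSF1B, the second TNF receptor (1.97 ± 0.24 and 3.89 ± 0.26). TNFRSF1B had 198 and 271 reads in E5 cells under FOLFIRINOX and vehicle, and 47 and 24 in control cells. With the drug it fell in E5 cells (-0.92 ± 0.18) and rose in control cells (1.0 ± 0.37). These effects differed by -1.92 ± 0.41 (edgeR adjusted p = 0.0028). NGFR was lower under the drug in E5 cells (-1.30 ± 0.15), with -0.39 ± 0.17 in control cells, which did not pass (adjusted p = 0.051), and it was higher in E5 than in control cells under vehicle (1.22 ± 0.15).

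Of 20 genes of the TNF receptor signalling complex and of necroptosis, 18 were tested, and 9 of them rose under the drug in control cells, where 32.6% of all tested genes did. Under FOLFIRINOX 5 were higher and 4 lower in E5 cells (median log2 fold change 0.06), where 25.0% and 27.3% of all tested genes were. In control cells 4 were lower beside the 9 (median 0.27), where 32.7% of all tested genes were lower. BIRC3, an inhibitor of apoptosis that adds ubiquitin to the complex, was higher under the drug by 1.64 ± 0.14 in E5 cells (edgeR adjusted p = 4.7e-08) and 2.76 ± 0.14 in control cells (adjusted p = 6.0e-11). TNFAIP3, the ubiquitin-editing enzyme that restrains NF-kappaB, was higher by 0.30 ± 0.076 in E5 cells and 1.38 ± 0.086 in control cells. MLKL, the pore-forming effector of necroptosis, was higher by 1.23 ± 0.17 in control cells, and its change of -0.53 ± 0.22 in E5 cells did not pass (adjusted p = 0.057). The drug effect was smaller in E5 than in control cells for 8 of the 18, where it was for 12.4% of all tested genes, and larger for none. The differences were -1.76 ± 0.28 for MLKL, -1.12 ± 0.19 for BIRC3 and -1.08 ± 0.12 for TNFAIP3. Under vehicle 8 were higher and 1 lower in E5 against control cells (22.1% and 22.2% of all tested genes). TNFAIP3 was higher there by 1.48 ± 0.087 and BIRC3 by 0.72 ± 0.14. Under FOLFIRINOX 3 were higher and 5 lower (26.7% and 27.6% of all tested genes), with MLKL at -1.85 ± 0.18. RIPK3, the kinase upstream of MLKL, had 0 counts in every library, and its highest FPKM was 0.0 too. A gene overlaps RIPK3 on the same strand, and whether it takes reads was not tested. RNF31 of this list passed no test, but its counts averaged 0.365 to 0.576 CPM by group, against 11.9 to 16.6 FPKM. Its counts may therefore hold a small part of its signal.

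All 14 genes listed for the other initiator and executioner caspases and the mitochondrial arm were tested. Under FOLFIRINOX 1 was higher and 7 lower in E5 cells (median -0.26), where 25.0% of all tested genes were higher and 27.3% lower. In control cells 3 were higher and 6 lower (median -0.09), where 32.6% of all tested genes were higher and 32.7% lower. APAF1, the scaffold of the apoptosome, fell under the drug, with log2 changes of -0.77 ± 0.10 in E5 cells and -1.29 ± 0.10 in control cells. CYCS, which encodes cytochrome c, rose by 0.72 ± 0.086 in E5 cells and 0.83 ± 0.086 in control cells. The APAF1 call in E5 cells was lost on the FPKM scale. CASP9 was lower under the drug in E5 cells (-0.70 ± 0.10) and control cells (-0.47 ± 0.11), and so was CASP6 (-0.66 ± 0.11 in E5 cells and -1.07 ± 0.11 in control cells). In E5 against control cells, 4 were higher and 3 lower under FOLFIRINOX (26.7% and 27.6% of all tested genes). Under vehicle 3 were higher and 3 lower (22.1% and 22.2% of all tested genes). CASP10, the neighbour of CASP8 and CFLAR, gave 1.33 ± 0.35 under vehicle, a call whose sign turned on the FPKM scale.

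Of 15 modulators of death receptor signalling, 14 were tested, and of 10 further p53 targets, 9. Among the modulators 5 were higher and 5 lower under the drug in E5 cells, and 4 were higher and 4 lower in control cells. Of all tested genes, 25.0% were higher and 27.3% lower under the drug in E5 cells, and 32.6% and 32.7% in control cells. PRKCA fell under the drug, with log2 changes of -0.66 ± 0.065 in E5 cells and -1.47 ± 0.067 in control cells. So did PTPN13, a phosphatase that binds FAS, with -0.71 ± 0.12 in E5 cells and -1.13 ± 0.12 in control cells. In E5 against control cells 4 modulators were higher and 4 lower under FOLFIRINOX, and 3 were higher and 3 lower under vehicle. Of all tested genes, 26.7% were higher and 27.6% lower in that comparison under FOLFIRINOX, and 22.1% and 22.2% under vehicle. Among the p53 targets 2 were higher and 5 lower under the drug in each kind of cell. FDXR changed by -1.70 ± 0.14 in E5 cells and -1.97 ± 0.15 in control cells, MDM2 by -0.66 ± 0.091 in E5 cells and -1.12 ± 0.093 in control cells, and AEN by 0.52 ± 0.081 in E5 cells and 1.14 ± 0.078 in control cells. In E5 against control cells 2 p53 targets were higher and 3 lower under FOLFIRINOX, and 1 was higher and 2 lower under vehicle. FAS, TNFRSF10B and EDA2R, which are p53 targets too, had drug changes of 0.35, 0.00 and 0.31 in E5 cells. In control cells their changes were 0.47, 0.31 and -0.07. TNFRSF10B did not pass in E5 cells, and EDA2R did not pass in either kind of cell. The lists were chosen with earlier results of these data in view, so their counts describe these libraries.

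**Figure D4:**
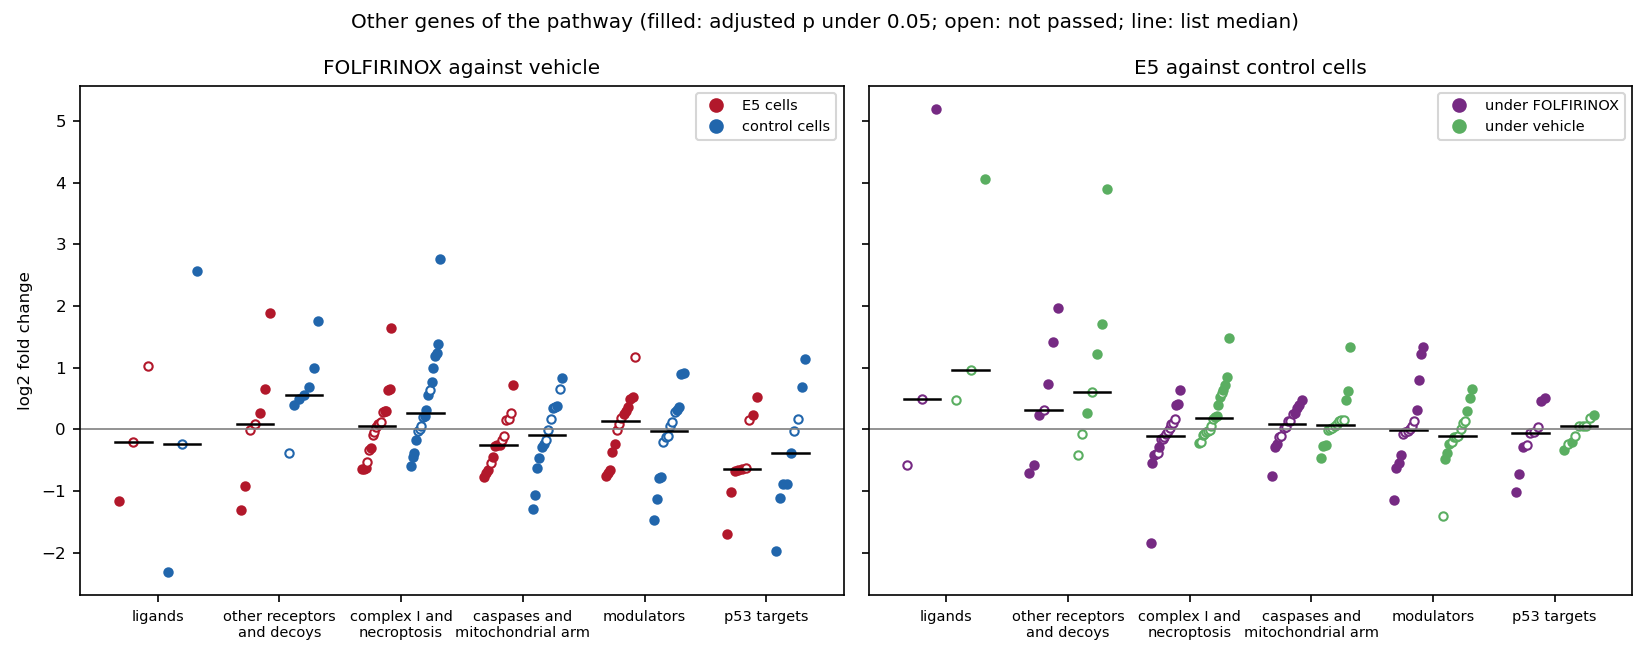
Log2 fold change of each tested gene (points) of the 6 lists of other pathway genes, for FOLFIRINOX against vehicle in E5 and control cells (left) and for E5 against control cells under FOLFIRINOX and under vehicle (right), with filled points for an adjusted p under 0.05 and a line at each list's median. In the list of complex I (the TNF receptor signalling complex) and necroptosis, BIRC3 is the highest point under the drug (1.64 in E5 cells and 2.76 in control cells) and MLKL the lowest in E5 against control cells under FOLFIRINOX (-1.85).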

How the data were processed

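KP4 RNA was extracted with RNeasy and libraries came from the KAPA mRNA HyperPrep kit, per the labels' protocols. Trimmomatic, STAR 2.5.1b and GRCh38 are named in the submitters' processing notes. The deposited counts are stranded read counts per gene, unscaled, per the file headers. FPKM values were computed by the authors, with a program not given in the sources used here. Library sizes left out reads that were unmapped (1.47 to 1.70%), mapped to several places (10.79 to 12.84%), lay in no gene (6.63 to 8.52%) or were ambiguous between genes (2.86 to 3.20%).

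Counts were tested in R 4.3.3 with edgeR 4.0.16 (quasi-likelihood F test, group means over all 12 libraries, TMM scaling, filterByExpr) and Benjamini-Hochberg adjustment at 0.05 over 15636 genes. SEs are the log2 fold change over the root of F. CPM values are TMM-scaled. The biological coefficient of variation was 7.37%. The 10 genes and the 6 lists were chosen with earlier results of these data known. From each list, up to 3 genes per comparison could be named, those with the largest change among genes that passed and reached 1 CPM; some genes of the lists are not reported here by name. Alternatives were DESeq2 1.42.0, limma 3.58.1 on log2(FPKM + 1) and log2(FPKM + 0.1), total-count scaling, no filter, only the compared groups, a replicate block and each library left out.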

Additional observations from a re-analysis of the deposited data

Results flagged for a closer look

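By the interaction test of edgeR, 4 of the 10 genes had a drug effect in E5 cells that differed from that in control cells. Of all 15636 tested genes, 25.7% passed the same test. The count of 4 was lower with no filter on low counts, and ran from 2 to 4 as each library was left out. The log2 drug effect in E5 cells minus that in control cells was -0.31 for TNFRSF10A, -0.31 for TNFRSF10B, 0.48 for TNFRSF1A and -0.35 for CASP8. For TNFRSF10A, TNFRSF10B and CASP8 the drug effect was 0.61, 0.00 and 0.11 in E5 cells, against 0.92, 0.31 and 0.46 in control cells. For TNFRSF1A it was -0.24 in E5 cells, against -0.73 in control cells. Groups of 3 libraries are too small for the outlier test used here, so none was run. The variance between pairs of libraries of a group is given with the depths.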

How the results depend on the processing

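Over 20 alternative settings, 947 of 990 values of the 10 genes kept their side of the threshold, 31 lost their call and 12 gained one. In 19 of the 990 the sign changed, and none of these passed in either fit; they included the drug effect in control cells of EDA2R (-0.07, against 0.06 with total counts and 0.03 and 0.04 on the FPKM scale) and of TRADD (-0.16, against 0.02 and 0.03 on the FPKM scale). For list genes, only the changes that could be named were followed. These had all passed in the main fit, so none could gain a call. Of their 1564 values, 1493 held, 69 lost their call and 2 changed sign. The sign changes were of CASP10 in E5 against control cells under vehicle (-0.10 with log2(FPKM + 1) and -0.15 with log2(FPKM + 0.1)). The cause was not tested. The count of the 10 genes with a different drug effect in E5 cells fell to 1, against 4, with no filter on low counts. Leaving out each library gave 5 to 6 of the 10 genes for the drug in E5 cells, 6 to 6 in control cells, 5 to 6 for E5 against control cells under FOLFIRINOX, 7 to 8 under vehicle and 2 to 4 for the difference of drug effects; over all genes the counts were 7280 to 8688, 9415 to 10429, 7683 to 8636, 5949 to 7470 and 3216 to 4049. By exon length, 4 of 10 genes kept their rank in E5 cells under FOLFIRINOX, 3 in E5 cells under vehicle, 3 in control cells under FOLFIRINOX and 2 in control cells under vehicle.

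Among genes called, the share that were higher under the drug in control cells was 49.9%, against 60.9% with total-count scaling and 66.9% on the FPKM scale. For the drug in E5 cells it was 47.8%, against 57.8% with log2(FPKM + 1) and 58.4% with log2(FPKM + 0.1). For E5 against control cells under FOLFIRINOX it was 49.1%, against 35.4% and 35.9%. For the difference it was 51.8%, against 39.5% with total counts, 63.4% with no filter and 26.5% and 27.4% on the FPKM scale. Total-count scaling and log2(FPKM + 1) moved the median of all genes in the control drug comparison by 0.14 on the log2 scale, and log2(FPKM + 0.1) moved it by 0.19. On that last scale the median was -0.13, against -0.01 in the main fit, for E5 against control cells under FOLFIRINOX. For the difference it was -0.12, against 0.01 in the main fit. With DESeq2, fitted on all genes with any read, the median of the difference was -0.11.

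Library numbers did not pair the samples: correlations of same-numbered libraries ran from -0.34 to 0.26, and 4 of 12 libraries were closest to their own number. A replicate block left the calls of the 10 genes at 5, 6, 6, 7 and 4 in the order of comparisons above, and gave 7905, 9988, 8145, 6635 and 3538 genes in all. EDA2R and TRADD, with the fewest reads, had the widest intervals.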
